A study of Homo sapiens with 3 samples.

Results

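The 4 HOX gene clusters were examined in LNCaP, a line of human prostate carcinoma cells that respond to androgen, using 3 lists of regions found by ChIP-seq. ChIP-seq recovers the DNA bound by a protein, and each list holds the sites that the authors called in 1 library. Regions were taken as members when their centre lay within chr7:27120000-27260000 (HOXA), chr17:46600000-46830000 (HOXB), chr12:54320000-54460000 (HOXC) or chr2:176940000-177060000 (HOXD) of the hg19 genome. These windows span 630 kb together and held 65 of the 59983 regions in all. Of the 65 members, 6 came from the 13382 regions of CK2α, 25 from the 21819 regions of RNA polymerase II (Pol II) with the vehicle DMSO, and 34 from the 24782 regions of Pol II with TBBz, an inhibitor of the protein kinase CK2.

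All cells were kept in charcoal-stripped serum for 3 days and then received 100 nM dihydrotestosterone (DHT), the hormone that activates the androgen receptor. The CK2α library was made with an antibody against the catalytic α subunit of CK2 from cells given DHT without inhibitor; its treatment label gives DHT for 2.5 hours and its protocol gives 90 min. For the Pol II libraries, cells received DMSO (25 μM on the label) or 25 μM TBBz for 2.5 hours, and DHT was added for the final 1.5 hours. There was 1 library per group, so the spread between replicates is unknown and no difference was tested; intervals are exact 95% intervals that cover counting error only. The same source label, which mentions TBBz, is on both Pol II libraries, and their groups were read from the treatment labels; whether the libraries were exchanged was not tested. Effects of TBBz other than on CK2 cannot be told apart from loss of CK2 activity. The lists hold no expression values, so the labelled cell line was not checked against marker genes.

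HOX genes encode homeodomain transcription factors that set the identity of body segments along the head-to-tail axis. In mammals they stand in 4 clusters that arose by duplication of an ancestral cluster, and the order of the genes along the DNA follows the order of the body regions in which they act. In most adult tissues parts of each cluster are silenced by Polycomb proteins, while other parts stay transcribed and mark the position from which the tissue came. HOXB13, which stands apart from the other HOXB genes, is a marker of the prostate lineage and its protein works together with the androgen receptor. Of the HOX genes in the RefSeq table, 11 belong to HOXA, 10 to HOXB, 9 to HOXC and 9 to HOXD. The coordinates of HOXB13 in hg19 (chr17:46802127-46806111) come with the definition of the windows. The other genes are named from their order in RefSeq (GRCh38.p14) only, and whether a given region lies in an exon, an intron or between those genes was not determined.

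The clusters also carry microRNA genes, and their mature sequences are shown here because they make the shared ancestry of the HOXA, HOXB and HOXC clusters visible. In RefSeq, MIR196B stands between HOXA9 and HOXA10, MIR196A1 between HOXB9 and HOXB13, MIR196A2 between HOXC10 and HOXC9, and MIR10A between HOXB4 and HOXB5. The sequences are from RefSeq (GRCh38.p14), written 5′ to 3′ with the seed (bases 2 to 8) in capitals.
hsa-miR-196a-5p: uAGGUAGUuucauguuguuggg
hsa-miR-196b-5p: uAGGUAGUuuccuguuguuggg
hsa-miR-10a-5p: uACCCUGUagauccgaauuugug
The genes MIR196A1 and MIR196A2 give the same mature sequence. The product of MIR196B has the same seed and differs from it at 1 base (A12C, counted from the 5′ end, with the base of miR-196a first). The seed of miR-10a is a different one. No expression of these RNAs was measured. The sequences of the called regions are not printed, because no genome of the build hg19 was used here.

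Pol II regions were dense in HOXA, HOXB and HOXC, and in HOXD their density was near that of the whole lists. HOXC held 11 Pol II regions with DMSO (5.49 to 19.7) and 12 with TBBz (6.20 to 21.0). HOXA held 6 in each list (2.20 to 13.1). HOXB held 7 with DMSO (2.81 to 14.4) and 15 with TBBz (8.40 to 24.7). HOXD held 1 in each list (0.0253 to 5.57). CK2α regions numbered 4 in HOXC, 1 in HOXA, 1 in HOXB and 0 in HOXD, and a count of 0 allows up to 3.69.

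Per Mb, the 4 windows together held 39.7 Pol II regions with DMSO (25.7 to 58.6), against 7.28 over the whole list, a ratio of 5.45. With TBBz it was 54.0 (37.4 to 75.4) against 8.27, a ratio of 6.53. For CK2α it was 9.52 (3.50 to 20.7) against 4.47, and this interval includes the value of the whole list. HOXC was the densest cluster in every list, with 78.6 Pol II regions per Mb with DMSO and 85.7 with TBBz. Of all 140 kb windows set end to end along the chromosomes, 0.266% held at least 11 DMSO regions, 0.308% held at least 12 TBBz regions and 3.50% held at least 4 CK2α regions. For HOXA, 3.29% of windows of its width held at least 6 DMSO regions, 4.39% at least 6 TBBz regions and 32.0% at least 1 CK2α region. For HOXD, 37.5% of the 120 kb windows held at least 1 DMSO region, 40.1% held at least 1 TBBz region and 70.9% held no CK2α region. The HOXD counts were thus ordinary for a window of that width, and the Pol II counts of HOXC were among the highest. The compared windows were laid without regard to genes, whereas the HOX windows were set around gene clusters.

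**Figure D1:**
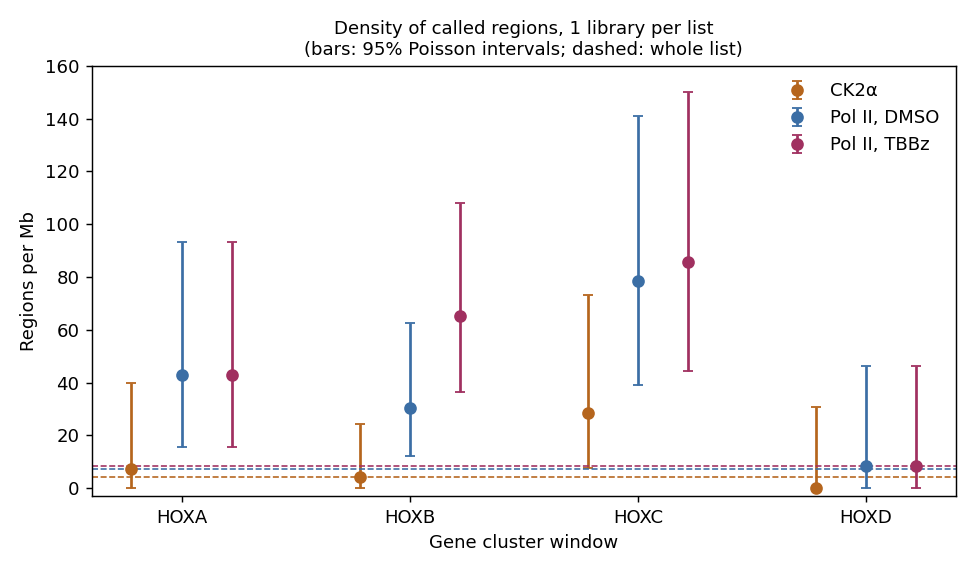
Called regions per Mb in each HOX window for CK2α, Pol II with DMSO and Pol II with TBBz, 1 library each. Points are densities, bars are exact 95% Poisson intervals (counting error only), and dashed lines are the densities of the whole lists (4.47, 7.28 and 8.27). Pol II stood above the whole list in HOXA, HOXB and HOXC and near it in HOXD.

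The lists of both treatments named mostly the same Pol II sites. Of the 25 DMSO members, 20 overlapped a TBBz region by at least 1 bp, which is 80.0% (59.3 to 93.2%), against a background of 73.8% for the whole DMSO list. Of the 34 TBBz members, 20 overlapped a DMSO region, which is 58.8% (40.7 to 75.4%), against a background of 65.0% for the whole TBBz list. Both shares lie close to their background. The centres of the 20 overlapping pairs were 1 to 138 bp apart, with a median of 33.5 bp, and the median over all 16112 overlapping pairs of the lists was 19 bp. When regions of all lists with centres up to 2 kb apart were joined, the 65 members formed 29 sites. Pol II of both treatments was found at 20 of these sites, TBBz Pol II alone at 6, DMSO Pol II alone at 2 and CK2α alone at 1.

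**Figure D2:**
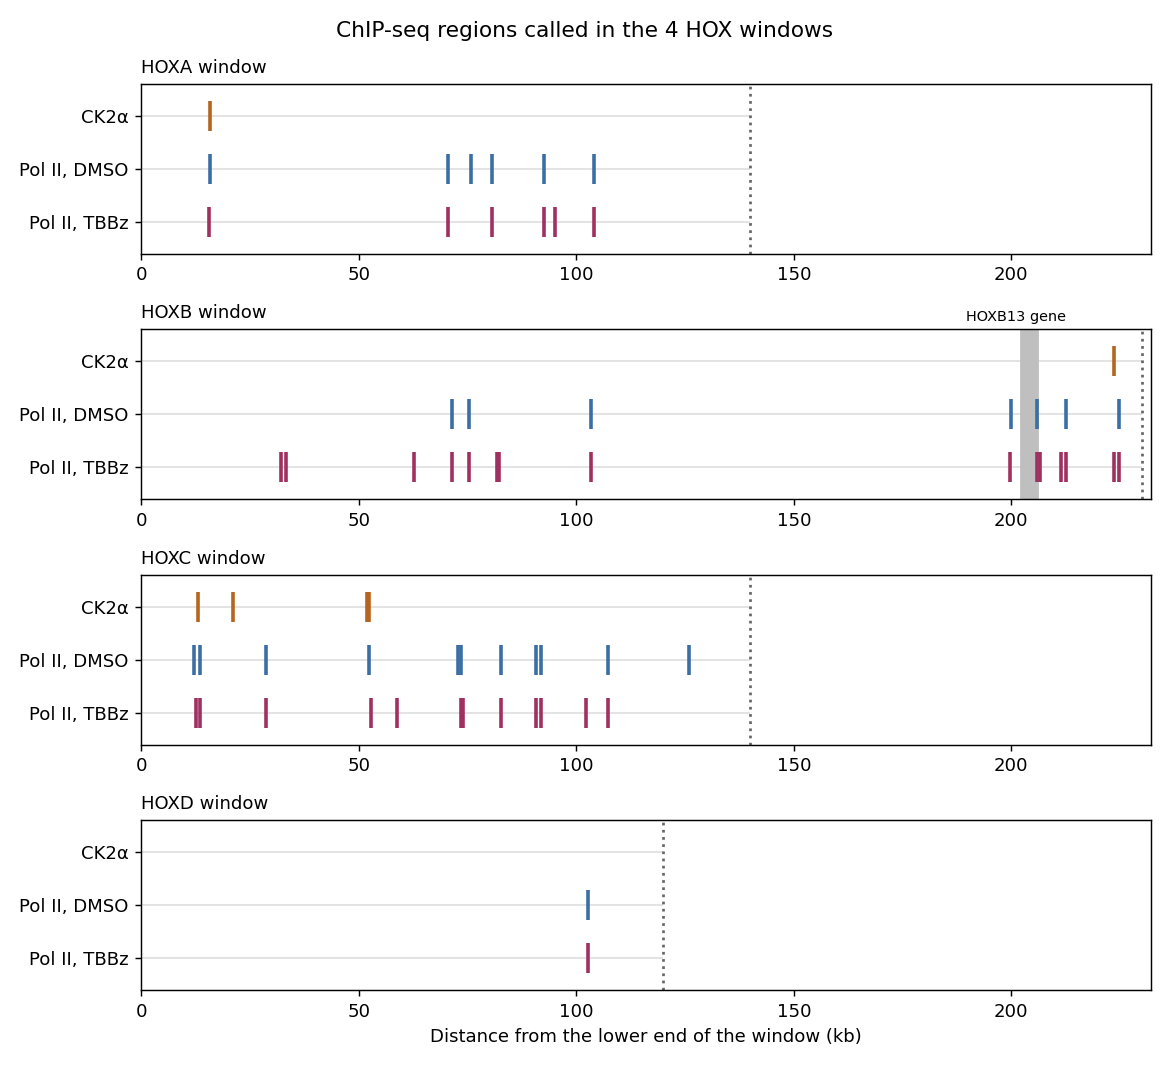
Position of every called region in the HOXA, HOXB, HOXC and HOXD windows, in kb from the lower end of the window; each tick is 1 region of 1 library, the dotted line is the upper end of the window and the grey band is the HOXB13 gene. The DMSO and TBBz ticks line up in most places, HOXB has TBBz ticks with no DMSO tick above them, and HOXD has a single Pol II position.

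In HOXA, 5 of the 6 DMSO regions recurred with TBBz. The only CK2α region of HOXA overlapped Pol II of both treatments and came at 96.2% of the CK2α list, close to its end. The centres of the other Pol II regions lay 70.5 to 104.1 kb from the lower end of the 140 kb window. RefSeq places HOXA13 and HOTTIP, a non-coding RNA of the 5′ end of the cluster, toward the upper end. No list had a region between chr7:27224193 and the upper end of the window. Positions of both treatments there were chr7:27190493-27190693, chr7:27200607-27200807, chr7:27212531-27212731 and chr7:27223993-27224193 of the DMSO list. Only DMSO had chr7:27195584-27195784, 5.0 kb from the nearest TBBz centre, and only TBBz had chr7:27214985-27215185, 2.5 kb from the nearest DMSO centre. Both unshared regions stood in the later part of their lists, at 83.9% and 63.1%.

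In the full lists HOXB showed the largest difference between the treatments. All 7 DMSO regions recurred with TBBz, and 8 further TBBz regions had no overlapping DMSO region. Of all 230 kb windows, 6.03% held at least 7 DMSO regions, 0.607% held at least 15 TBBz regions and 41.8% held at least 1 CK2α region. TBBz regions outnumbered DMSO regions by 8 or more in 0.0845% of these windows (11 of 13021), and DMSO regions outnumbered TBBz regions by as many in 0. The excess of 8 is HOXB's own, and HOXB alone was compared in this way because its difference was the largest. The windows were not matched for density, and a window with few regions cannot reach such an excess. This share and those for shortened lists below therefore also reflect how dense HOXB is. The TBBz library was the deeper one, with 22345614 tags against 15466579, and 12.60% of its tags lay in regions against 6.79% with DMSO. The part of depth in the HOXB difference was not tested. With both Pol II lists shortened to the first 21819 regions the HOXB count was 13 with TBBz and 7 with DMSO, an excess that 0.261% of windows reached. With the first 13382 regions of each it was 7 and 5, an excess that 1.74% of windows reached, and HOXA then differed by as many in the other direction, with 3 TBBz and 5 DMSO regions.

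A stretch of 96.3 kb without a region in any list, chr17:46703453-46799733, divided HOXB into a lower part and a part around HOXB13. This division was made after the positions were seen. The lower part lies on the side where RefSeq places HOXB1 to HOXB9. It held 3 DMSO regions (0.619 to 8.77), 8 TBBz regions (3.45 to 15.8) and no CK2α region. The shared sites were chr17:46671358-46671558, chr17:46675304-46675504 and chr17:46703242-46703442 of the DMSO list. The last of these stood almost at the end of the DMSO list, at 99.3%, and its TBBz partner at 62.3% of the TBBz list. The 5 regions called only with TBBz were chr17:46631967-46632167, chr17:46633084-46633284, chr17:46662723-46662923, chr17:46681566-46681766 and chr17:46682208-46682408. The lowest pair of these lay 39.4 and 38.3 kb from the nearest DMSO centre, and the others 6.3 to 8.6 kb away. All 8 TBBz regions of the lower part stood late in their list, between 62.3% and 96.3%. Among the first 13382 regions of each list the lower part held 0 TBBz regions and 1 DMSO region, so its excess rested on late entries of the TBBz list.

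The part around HOXB13 held 4 DMSO regions (1.09 to 10.2), 7 TBBz regions (2.81 to 14.4) and 1 CK2α region. HOXB13 is read toward lower coordinates, so its upper end is its 5′ end. A Pol II region lay at that end in both treatments, and only the TBBz region reached past it. With DMSO it was chr17:46805901-46806101, centred 111 bp inside the gene, at place 3328 (15.3% of the list). With TBBz it was chr17:46805918-46806118, centred 94 bp inside, at place 2529 (10.2%). No CK2α region was called at the gene, and the nearest CK2α centre was 17.7 kb from these Pol II centres. The other early Pol II region lay 2.2 kb below the lower end of HOXB13, at chr17:46799760-46799960 with DMSO (place 1229, 5.63%) and chr17:46799734-46799934 with TBBz (place 4686, 18.9%). The next protein-coding genes on that side are PRAC1 and PRAC2 in RefSeq's order, which encode small proteins found in prostate and the lower bowel. Within the DMSO list this region came before the one at the HOXB13 5′ end, and within the TBBz list it came after it. The order is described here within each list and gives no size of a change.

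Above the 5′ end of HOXB13, further Pol II sites were called in both treatments at chr17:46812427-46812627 and chr17:46824746-46824946 of the DMSO list, 6.4 and 18.7 kb from the gene's upper end. The 3 regions called only with TBBz in this part were each next to a site of both treatments. They were chr17:46806612-46806812, 711 bp from the DMSO centre at HOXB13, chr17:46811444-46811644, 983 bp from a DMSO centre, and chr17:46823467-46823667, 1279 bp from a DMSO centre. The only CK2α region of the HOXB window, chr17:46823640-46823840, was the earliest HOX entry of its list, at place 527 of 13382 (3.94%). It overlapped the TBBz region at 46823467, with the centres 173 bp apart, and overlapped no DMSO region; the nearest DMSO centre was 1106 bp away. Among the first 13382 regions of each list this part held 7 TBBz and 4 DMSO regions, the same numbers as in the full lists.

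**Figure D3:**
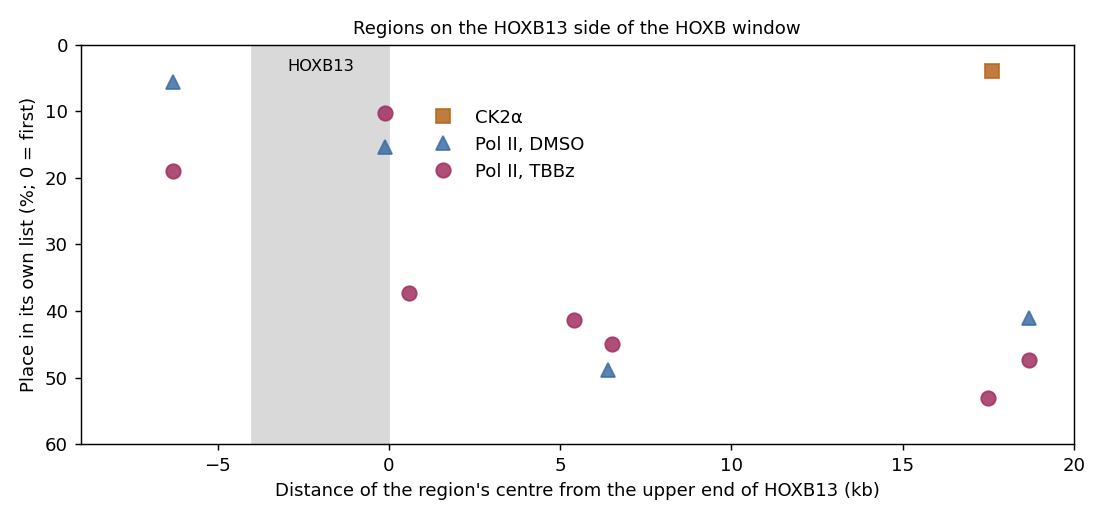
Regions around HOXB13, by the distance of their centre from the upper (5′) end of the gene in kb and by their place in their own list in percent, with 0 at the top as the first entry; the grey band is the gene. The Pol II regions at the 5′ end stood at 15.3% with DMSO and 10.2% with TBBz, and the CK2α region at 3.94% lay 17.6 kb above the gene.

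In HOXC, 7 of the 11 DMSO regions recurred with TBBz and 7 of the 12 TBBz regions recurred with DMSO. Of the 4 DMSO regions without overlap, 3 were 474 to 533 bp from the nearest TBBz centre. For chr12:54392782-54392982 that TBBz region already overlapped another DMSO region, chr12:54393356-54393556. The exception was chr12:54445811-54446011, 18.6 kb from the nearest TBBz centre and at 81.0% of the DMSO list. Of the 5 TBBz regions without overlap, chr12:54378589-54378789 and chr12:54422107-54422307 had no DMSO centre within 2 kb, at 95.5% and 59.4% of the TBBz list. The earliest Pol II entries of the cluster were a pair of neighbouring sites about a kilobase apart. With DMSO the lower one, chr12:54410595-54410795, came first (place 3077, 14.1%) and the upper one, chr12:54411655-54411855, later (place 8134, 37.3%). With TBBz the order within the list was turned: the lower one, chr12:54410603-54410803, stood at place 6703 (27.0%) and the upper one, chr12:54411695-54411895, at place 1874 (7.56%), the earliest of all 34 TBBz members. On that side of the cluster RefSeq places HOXC8, HOXC6, HOXC5 and HOXC4, and HOXC6 is known for high expression in prostate cancer. Which of these genes holds the pair was not determined.

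CK2α was called in HOXC at 4 positions, all in the lower part of the window, on the side where RefSeq places HOXC13, HOXC12, HOTAIR and HOXC11. HOTAIR is a non-coding RNA read against HOXC11 that was described as a partner of Polycomb proteins. The earliest of the 4, chr12:54332974-54333174 (19.0% of the list), lay between Pol II sites without touching them, 549 bp from a DMSO centre and 422 bp from a TBBz centre. A pair 531 bp apart followed at chr12:54371813-54372013 and chr12:54372344-54372544. The second of them overlapped the DMSO region chr12:54372198-54372398, with centres 146 bp apart, and overlapped no TBBz region; the nearest TBBz centre was 328 bp away. The CK2α region chr12:54340893-54341093 stood apart from Pol II, 7.4 kb from the nearest centre of either treatment. The upper part of HOXC, with the early pair of Pol II sites, held no CK2α region, and the nearest CK2α centre was 38.3 kb from that pair.

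In HOXD a single position carried Pol II, chr2:177042684-177042884 with DMSO and chr2:177042683-177042883 with TBBz, 1 bp apart. It stood late in both lists, at 92.1% and 97.4%. The next Pol II centre of its own list was 91.4 kb away in each treatment, and the nearest CK2α centre was 91.5 kb away. The position lies toward the end of the window where RefSeq places HOXD3 and HOXD1. Nothing was called toward the end with HOXD13 and EVX2, the genes for the most posterior and distal structures. The lists hold narrow peaks that passed a tag threshold and stood 4-fold above the surrounding 10 kb, so a stretch without a region is one without such a peak.

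Few HOX Pol II regions carried a CK2α region. The windows held 6 CK2α regions beside 25 and 34 Pol II regions, which limits the share seen from Pol II. Of the 6 CK2α members, 2 overlapped a DMSO region (33.3%, 4.33 to 77.7%), against a background of 36.8%, and 2 overlapped a TBBz region, against a background of 36.0%. Only the HOXA region overlapped both. Seen from Pol II, 2 of the 25 DMSO members overlapped CK2α (8.0%, 0.984 to 26.0%), against a background of 22.6%, and 2 of the 34 TBBz members did (5.88%, 0.720 to 19.7%), against a background of 19.4%. The interval with DMSO includes the background and the interval with TBBz ends just above it. None of the 11 DMSO members in the first 50% of the list overlapped CK2α (0 to 28.5%), while 29.9% of all regions in that part of the list did. In the rest of the DMSO list 2 of 14 members did (14.3%), against 15.2% of all regions there. For TBBz members it was 1 of 13 in the first 50% (7.69%, 0.195 to 36.0%), against 27.4%, and 1 of 21 in the rest (4.76%, 0.120 to 23.8%), against 11.5%. Of these 4 intervals, that of the early DMSO members alone excludes its background, and only narrowly (28.5% against 29.9%). This interval treats regions of the same locus as independent, and other overlap rules were not tried for it. The interval of all DMSO members includes its background, no difference was tested, and no depletion is concluded. Early DMSO members without overlap could still lie near CK2α, the closest with centres 549 bp apart. Within 2 kb of a DMSO centre lay 5 of the 6 CK2α members (83.3%), against 80.6% of the whole CK2α list.

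Pol II regions with a close neighbour in the same list were found in HOXC in both treatments and in HOXB with TBBz. HOXA had none in either list (0 of 6, 0 to 45.9%, in each), and HOXD had a single region per list. With TBBz, 10 of the 15 HOXB regions (66.7%, 38.4 to 88.2%) and 6 of the 12 HOXC regions had another TBBz region within 2 kb, against a background of 24.0% for the whole list. With DMSO it was 6 of the 11 HOXC regions (54.5%, 23.4 to 83.3%) and 0 of the 7 HOXB regions (0 to 41.0%), against a background of 19.3%. The intervals of HOXA in both lists and of HOXB with DMSO include their backgrounds. The backgrounds are those of the whole lists and were not matched to the higher density of regions in these windows. Regions of 1 cluster share a library and a locus and are not independent of each other. The regions with a close neighbour were mutual pairs, each pair counted from both sides, so the intervals are too narrow.

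HOX members stood across the whole length of the Pol II lists. With DMSO their places ran from 5.63% to 99.3%, with a median of 51.9%, and 3 of 25 were in the first 20%. With TBBz they ran from 7.56% to 97.4%, with a median of 55.5%, and 3 of 34 were in the first 20%. All 6 of these early entries came from 3 of the 29 joined sites: the 5′ end of HOXB13, the site below HOXB13 and the pair in HOXC. The HOXA members stood between 37.1% and 83.9% of the list with DMSO and between 42.9% and 63.1% with TBBz, none of them in the first 20%. In the whole lists sharing followed the place. In the first 50% of the DMSO list 88.2% of all regions recurred with TBBz, and in the rest 59.5% did. Of the DMSO members, 10 of 11 (58.7 to 99.8%) and 10 of 14 (41.9 to 91.6%) did. In the TBBz list 82.8% and 47.2% of all regions recurred with DMSO, and 10 of 13 and 10 of 21 members did. In each list the intervals of the members in the first 50% and in the rest overlap. They also include the shares of all regions, so no trend is concluded for the HOX members.

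**Figure D4:**
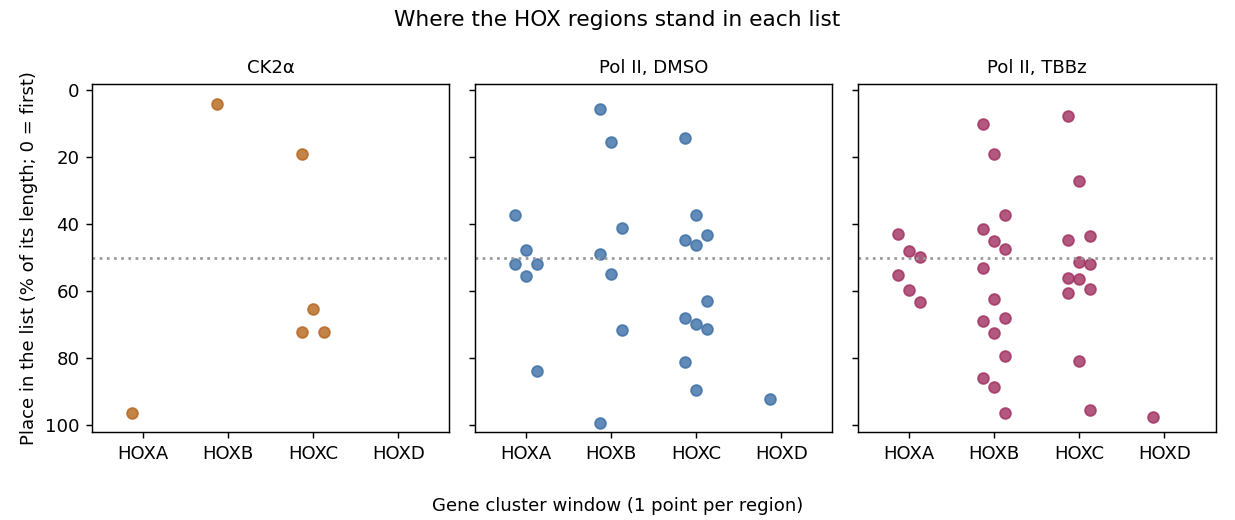
Place of each HOX region in its own list, as a percentage of the list's length with 0 at the top as the first entry, by cluster and list; each point is 1 region, spread sideways for visibility, and the dotted line marks 50%. The earliest Pol II entries belonged to HOXB and HOXC, and the single HOXD region stood at 92.1% with DMSO and 97.4% with TBBz.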

How the data were processed

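Per the submitters' processing notes, reads were aligned with Bowtie to hg19 and peaks were called with HOMER, of versions not given here. The authors ran HOMER on each library by itself, per the file headers (factor style, centred, peak size 200 bp, minimum distance 500 bp, false discovery rate 0.001, 4-fold over the surrounding 10 kb) with no control library in the command. The libraries held 19021404 (CK2α), 15466579 (DMSO) and 22345614 tags (TBBz), and the tag threshold was 12, 11 and 13. Of the candidate peaks, the local filter removed 76.2%, 53.7% and 35.3%, so sites inside broad signal can be missing from the lists. The deposited columns give the start and end of each region and a score that is 1 throughout, so no strength per region was used; the place in the deposited list served as order, on the assumption that it follows strength. Starts were raised by 1.

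Members were counted by centre and cluster, overlap meant at least 1 bp, and each share was set beside the whole list. Windows of each cluster's width were laid end to end over the span of each chromosome. Counts have exact Poisson and shares exact Clopper-Pearson 95% intervals; tags of PCR copies are not independent. With 1 library per group no test was made. The members, windows and gene lists were chosen with earlier results of these data known; all regions of the windows are members and could be named; the position of 1 HOXA site is not reported here. The scripts were tested on simulated data, where 4000 of 4000 planted overlaps were recovered at each of 2 overlap shares. Python 3.11.15, NumPy 2.4.6, SciPy 1.17.1 and Matplotlib 3.10.9 were used.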

Additional observations from a re-analysis of the deposited data

How the results depend on the processing

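Of 113 values recomputed with other windows, list lengths, overlap rules or backgrounds, 94 stayed within their limits and 19 moved. The limit was a fixed ratio to the main value for counts and differences, and the counting interval for shares and densities. That interval is wide for the share of CK2α members on DMSO Pol II (4.33 to 77.7%). No positive difference became negative. With windows widened by 20 kb HOXB held 2 CK2α regions, and with windows narrowed by 10 kb 0. With Pol II lists of equal length the excess of TBBz regions was 5 over all clusters (9 in the full lists), 0 in HOXC and −1 in HOXD, where the TBBz count was 0. With all 3 lists of equal length, DMSO counts were 15 in all, 5 in HOXC and 0 in HOXD, and TBBz counts were 16 in all, 3 in HOXA, 7 in HOXB, 6 in HOXC and 0 in HOXD. The TBBz excess was then 1 in all, 2 in HOXB and −2 in HOXA. Shortening a list lowers its counts by construction. With centres within 2 kb counted as shared, 76.5% of TBBz members recurred with DMSO and 83.3% of CK2α members had DMSO Pol II; a wider rule finds more partners by construction, and the shares of the whole lists were then 78.9% and 80.6%. The density of the windows against chromosomes 1 to 22 moved by less than its counting interval. No paired analysis was possible because there is a single library per condition. More than 50% of the Pol II members stood in the last 50% of their lists (14 of 25 and 21 of 34), and tags were not subsampled to equal depth.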
